A study of Chlorella sorokiniana and Chromochloris zofingiensis with 12 samples.

Results

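Ribosomal RNA fragments were followed in small RNA libraries of 2 green algae, through every entry of the deposited annotation sheets whose type is rRNA. There were 42 such entries of 893 RNA entries in all, and each of the 42 is a 5S rRNA locus of Arabidopsis thaliana, the plant whose annotation the authors used. The algae were Chlorella sorokiniana strain NIES-2168 and Chlorella zofingiensis strain ATCC30412. Stress cultures of either alga had the light raised to 100 µmol photons and 2% glucose added in mid log phase. Normal cultures of either alga stayed at about 10 µmol photons, and all cultures were first grown in Bold's Basal Medium at 27 °C with shaking at 30 rpm under continuous light. Each of the 4 groups, stress and normal in each species, had 3 libraries. The labels do not say that these came from separate cultures, so p-values measure the spread between these libraries, which may be technical. Light and glucose were changed together, so their effects cannot be told apart.

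5S rRNA is the small RNA of the large ribosomal subunit, where it sits with ribosomal proteins uL5 and uL18 in the central protuberance. In many eukaryotes its genes lie in tandem arrays apart from those of the other rRNAs, and RNA polymerase III transcribes them with the help of transcription factor TFIIIA. Pieces of abundant structural RNAs, 5S rRNA among them, are common in small RNA libraries, where a read shows that a fragment was cloned and not how much intact rRNA a cell holds. In bulk libraries, fewer cells and less RNA per cell cannot be told apart either.

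The 42 loci lie in TAIR9 coordinates on 3 chromosomes, 32 on chromosome 3, 6 on chromosome 5 and 4 on chromosome 1. They are 105 to 120 bases long, and 37 of them are 119 bases long. A read was counted at every locus to which it maps, so near-identical loci share reads and are uncertain one by one. Loci with the same counts in all 12 libraries were therefore taken as 1 pattern, which gave 25 patterns, 11 of them shared by 28 loci. Of the 25, 16 patterns with 25 loci had at least 10 reads over all libraries and are called A to P here by falling read number. The other 9 patterns, with 17 loci, had 2 to 9 reads each. Pattern A stands for chr1:16432955-16433072 and 1 more locus, with 171 reads. Pattern B stands for chr3:13682368-13682486 and 1 more locus, with 157 reads. Pattern C is the single locus chr5:12024975-12025093, listed as ath-rRNA-5S_rRNA-chr5-12024975-12025093, with 145 reads. The files give no gene, exon or UTR at these places beyond the name 5S rRNA.

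The reads of the leading patterns are shown through the commonest tag that the authors listed for each locus and library, because the tags show what the counts rest on and how the species differ. In all 12 libraries the commonest tag of patterns A and B held the run ATCAGAACTC, which is in capitals below. It was found after the tags had been seen, as the longest run that all commonest tags of pattern A share.
Pattern A, C. sorokiniana, 13 bases: cATCAGAACTCca
Pattern A, C. sorokiniana, 17 bases: atcccATCAGAACTCca
Pattern A, C. zofingiensis, 17 bases: atcccATCAGAACTCga
Pattern C, C. sorokiniana, 20 bases: atcccATCAGAACTCcgaaa
Pattern C, C. zofingiensis, 20 bases: atcccATCAGAACTCggaaa
Pattern F, C. sorokiniana, 25 bases: cacaccggatcccATCAGAACTCca

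The base that follows the run was C in the 6 tags of C. sorokiniana that hold it and G in the 6 tags of C. zofingiensis that hold it. The 20-base tags of pattern C from the 2 species differed by 1 substitution, C16G, given as the C. sorokiniana base, its position counted from 1 at the 5′ end of the tag, and the C. zofingiensis base. The tags of pattern C that hold the run go on from the run with 5 further bases, whereas those of pattern A end 2 bases after it. Over all patterns there were 39 distinct commonest tags, 12 of them with the run. The other 27 lack the run, and some of them may come from other RNAs, but their reads are in the counts. The 39 tags were 11 to 25 bases long, with a median of 15, and each mapped to 3 to 45 loci. Only 1 tag, of 11 bases, occurred in both species. Each of the 39 tags ended in A, as did 91.2% to 99.5% of the commonest tags of all RNA types in a library. Pattern C is the exception to the run in 1 library: in C. sorokiniana stress replicate 3 its commonest tag, with 9 of 25 reads, was an 18-base tag without the run, which is not printed because its origin is uncertain.

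Depth limited these counts. With entries of identical counts within a species taken once, the annotated counts of a library came to 804 to 5730 in C. sorokiniana and to 6342 to 117084 in C. zofingiensis, and C. sorokiniana normal replicate 3 was the shallowest. No locus or tag with fewer than 2 reads and no tag with more than 49 mapping loci was listed, so a 0 means that no tag of 2 or more reads was listed for the locus. Replicates of every group differed by more than the sampling noise of independent counts, with a chi-square of 2.39 to 234 per degree of freedom. Reads counted at several loci also raise this value, so extra spread was not separated from repeated counting.

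In C. sorokiniana, reads at the 5S rRNA entries took a larger share of the annotated counts in each stress library than in any normal library, in a design too small to pass a test at 0.05. The share counts every read that the authors listed at these entries, also those of tags whose origin is uncertain. The share was 2.59%, 2.93% and 2.07% in the stress libraries, against 1.49%, 0.721% and 0.498% in the normal libraries. The means were 2.53 ± 0.43% under stress and 0.903 ± 0.52% in normal culture (SD, n = 3 each), a difference of 1.63 percentage points. The two-sided exact permutation test gave p = 0.1, which is the smallest that 3 libraries against 3 allow, and 0.2 after Benjamini-Hochberg adjustment over the 2 species. The 95% Wilson intervals of single libraries reached from 1.69% to 3.40% under stress and from 0.194% to 1.87% in normal culture, and cover counting error only. The share counts a read at each pattern that it maps to, so the intervals are too narrow even for counting error. Counted over only the patterns whose commonest tag in a library holds the shared run, a measure added after the tags were seen, the shares were 1.41%, 2.22% and 1.01% under stress and 0.517%, 0.541% and 0.498% in normal culture. These were 3, 3 and 2 patterns under stress and 2, 3 and 2 in normal culture, so the sets differ between libraries. The set lacked pattern C in stress replicate 3 and held pattern F in normal replicate 2. All reads of such a pattern were counted, also those of its other tags. Over all 5S rRNA patterns but pattern C, the shares were 2.14%, 2.23% and 1.52% under stress and 1.49%, 0.721% and 0.498% in normal culture, still without overlap. With every locus counted on its own, C. sorokiniana stress replicate 3 at 0.8702% fell just below normal replicate 1 at 0.8708%, so the groups then overlapped. The difference was then 0.522 percentage points, and 0.551 with counts divided by mapping loci. The share of annotated entries that are rRNA entries, a measure without read numbers, was lower under stress by the means (-0.443 percentage points, exact permutation p = 0.3).

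In C. zofingiensis the share was lower and did not separate the cultures. It was 0.402%, 0.0342% and 0.398% in the stress libraries, against 0.788%, 0.109% and 0.234% in the normal libraries. Stress replicate 2, the deepest library, was the lowest of the 6, and normal replicate 1, the shallowest of the species, was the highest. The means were 0.278 ± 0.21% and 0.377 ± 0.36% (SD, n = 3 each), with p = 0.8 by the exact permutation test and an adjusted p of 0.8. The difference of -0.0994 percentage points changed sign without normal replicate 1 (0.106), without stress replicate 2 (0.0225), with counts divided by mapping loci (0.00353) and over the patterns whose commonest tag holds the run (0.0444). The part of depth in these shares was not tested.

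**Figure D1:**
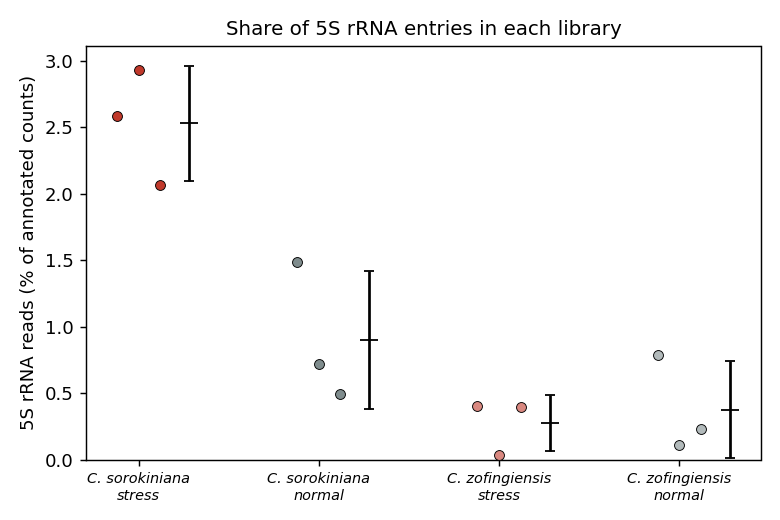
Share of reads at 5S rRNA entries in each library, as a percent of annotated counts with entries of identical counts taken once, for stress and normal cultures of the 2 species; points are libraries, and bars are the mean ± SD of 3. The 3 stress libraries of C. sorokiniana lie between 2.07% and 2.93%, above its normal libraries, and the groups of C. zofingiensis overlap.

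Single patterns were tested within all RNA types by edgeR's quasi-likelihood test with Benjamini-Hochberg adjustment over every pattern that passed the low-count filter. In C. sorokiniana 66 patterns were tested and 42.4% of them were called at an adjusted p below 0.05, 18.2% as higher under stress. The call shares depend on the scaling: 12 of 28 calls were higher with TMM and 18 of 24 with DESeq2's size factors, which moved the median log2 change of all tested patterns to 0.78, against 0.33 with TMM. Of 13 rRNA patterns with reads in this species, 6 passed the filter, and they entered as 5 since patterns D and E have the same counts there. Of these 5, 1 was called, and it was higher. Over the 5, the median log2 change was 0.95, and 4 were positive. The 5 are not independent, since patterns A and B share reads.

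The reads counted for pattern C, the locus at chr5:12024975-12025093, rose under stress in C. sorokiniana. Pattern C had 23, 40 and 25 reads in the stress libraries, against 0 reads in each of the 3 normal libraries. Its commonest tags in the stress libraries held 7, 10 and 9 of these reads and mapped to 6, 21 and 6 loci. The counts therefore do not tie the rise to this locus alone. The stress libraries were all high and no normal library listed the locus. Its level was 0.564 ± 0.128% of annotated counts under stress (SD, n = 3). Set against 3 counts in each normal library, this level was at least 3.22-fold higher under stress, and at least 7.41-fold higher when the shallow normal replicate 3 was left out. Without normal replicate 1 the bound was 2.44, and without normal replicate 2 it was 2.59. The bounds are for listed reads, as tags of single reads were not listed. At the mean stress share, 27.3, 18.8 and 4.54 reads would have fallen in normal replicates 1, 2 and 3. The adjusted p was 5.12e-07 by edgeR's quasi-likelihood test and 3.6e-05 with the replicate number as a block. Pattern C passed the low-count filter by its stress reads alone. In the fit without a filter its adjusted p was 1.28e-06 by edgeR, where 44 of 218 patterns of all types were called. The fitted log2 change of 7.47 is set against libraries at 0, so it depends on the prior count and is no bound. The authors' deposited table gave the same locus a normalized mean of 3.18 under stress and 0 in normal culture, with p = 0.13 and an FDR of 1.

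Patterns A and B had the next lowest p-values among the rRNA patterns of C. sorokiniana and missed the threshold. Pattern A had 25, 48 and 23 reads under stress and 14, 9 and 2 reads in normal culture. Its level was 0.609 ± 0.199% of annotated counts under stress and 0.27 ± 0.02% in normal culture (SD, n = 3 each). The levels of the groups did not overlap. The log2 change of pattern A was 0.95 ± 0.46 (SE), with an adjusted p of 0.0833 by edgeR. Pattern B had 25, 39 and 23 reads under stress and 11, 7 and 2 reads in normal culture. Its levels, 0.556 ± 0.108% under stress and 0.229 ± 0.019% in normal culture (SD, n = 3 each), did not overlap either. Its log2 change was 1.13 ± 0.49 (SE), with an adjusted p of 0.0512 by edgeR. Both patterns passed with DESeq2's size factors (adjusted p = 0.024 for A and 0.0243 for B), with library totals alone (0.0367 and 0.0213) and with DESeq2's Wald test (0.0409 and 0.0188). Without normal replicate 1 their log2 changes were 1.95 (adjusted p = 0.026 by edgeR) and 2.06 (0.0133), and without normal replicate 3 pattern B also passed at 1.08 (0.0227). Without normal replicate 1 the median log2 change over all 77 tested patterns was 1.55, and 29 of 30 calls were higher. Whether the larger changes of A and B there come from this general shift was not tested. Of the 66 tested patterns of all types, 53% had stress shares all above or all below the normal shares, and 3 of the 5 rRNA patterns did, namely A, B and C. Patterns A and B had the same commonest tag in every library, so they share reads and are not independent results. The authors' deposited table listed pattern A at a normalized mean of 2.05 under stress and 0 in normal culture (FDR of 1), although the sheets hold normal reads for it. It listed pattern B likewise at 1.55 and 0 (FDR of 1).

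The remaining tested patterns of C. sorokiniana overlapped between the cultures. Patterns D and E, whose commonest tag in this species is 11 bases long and maps to 25 loci, had 12, 9 and 10 reads under stress and 18, 4 and 0 reads in normal culture. Normal replicate 1 alone lay above all stress libraries. Their log2 change was -0.31 ± 0.58 (SE; edgeR adjusted p = 0.659), and its sign turned with DESeq2's size factors (0.02), with DESeq2's Wald test (0.11), without normal replicate 1 (1.77) and without stress replicate 2 (0.21). Pattern F, at chr3:13596094-13596212, had 19, 15 and 3 reads under stress and 13, 2 and 0 in normal culture, a log2 change of 0.45 ± 0.59 (SE; edgeR adjusted p = 0.552). Its log2 change ranged from -0.02 to 2.91 with 1 library left out, and was 2.91 without normal replicate 1, with an adjusted p of 0.0473. Without normal replicate 1 the median over all tested patterns was 1.55. Pattern I, at chr3:13597093-13597211, shares most of these reads, with 19, 9 and 3 under stress and 13, 0 and 0 in normal culture, and did not pass the filter. Pattern M, at chr5:11309208-11309326, had 6, 6 and 4 reads under stress and none in normal culture. It passed in the fit without a filter (edgeR adjusted p = 0.0451), where 44 of 218 patterns of all types were called. Its mean stress level of 0.103% lay below the mean of 3 counts per normal library, so no fold is given.

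**Figure D2:**
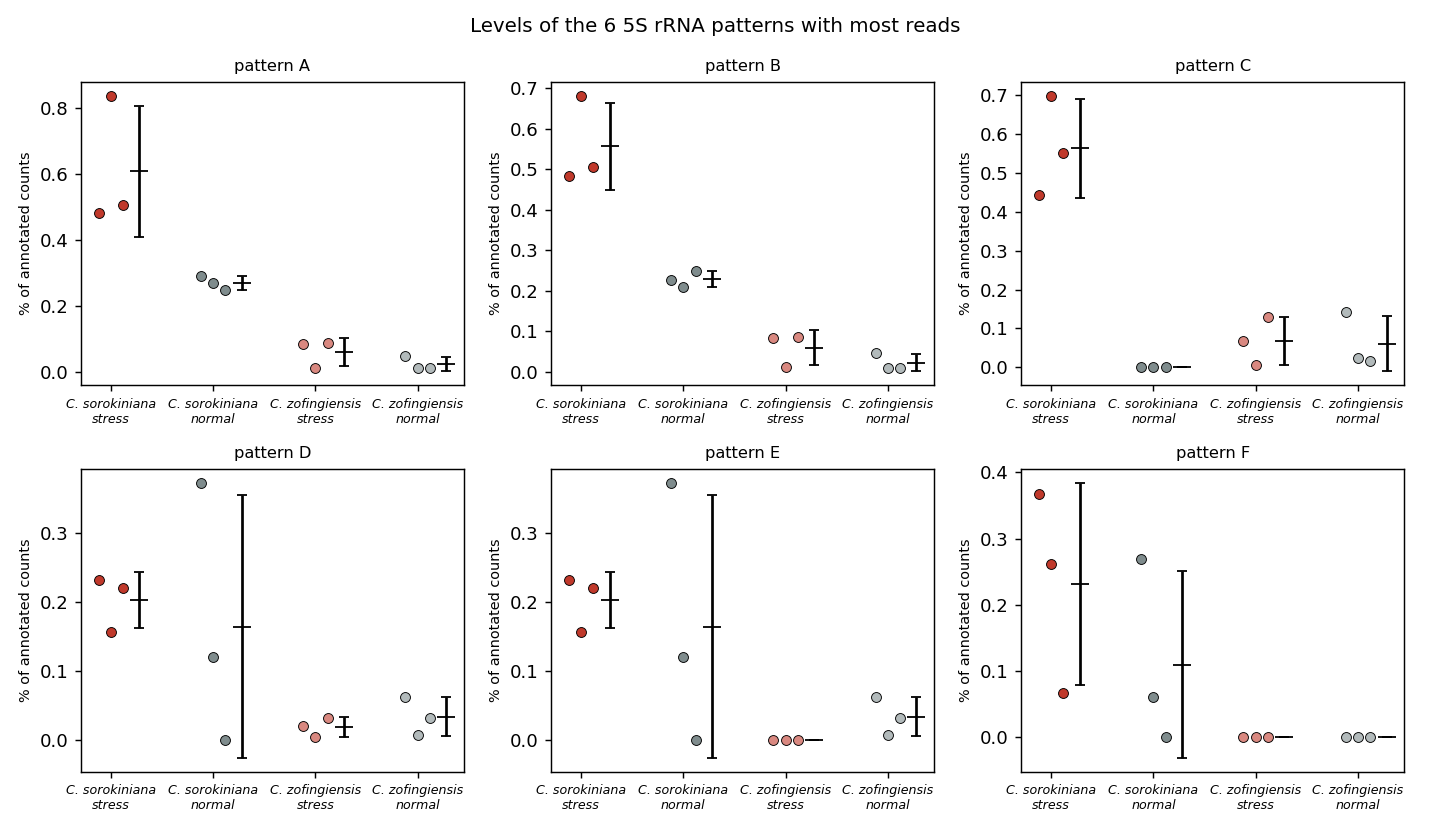
Share of annotated counts, in percent, of the 6 5S rRNA patterns with most reads (A to F), in stress and normal cultures of each species; points are libraries and bars are the mean ± SD of 3. Patterns A, B and C of C. sorokiniana separate stress from normal, with pattern C at 0 in each normal library, and patterns D, E and F overlap. Patterns A and B share reads.

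In C. zofingiensis the called pattern was another one. Here 116 patterns were tested, of which 33.6% were called and 21.6% called as higher. Of 18 rRNA patterns with reads in this species, 4 passed the filter as 2 sets of counts, and 1 was called, which was higher. The called counts are those of patterns A, B and H, which are identical in this alga. They came to 20, 13 and 8 reads under stress and 3, 4 and 2 reads in normal culture. Every stress library had more reads than every normal library, but the levels overlapped, at 0.06 ± 0.042% under stress and 0.0227 ± 0.021% in normal culture (SD, n = 3 each). No rRNA pattern of the 2 had levels without overlap, against 25% of the 116 tested. The log2 change was 2.09 ± 0.63 (SE), with an adjusted p of 0.0287 by edgeR. This call did not hold with the replicate number as a block (adjusted p = 0.0575). It was also lost with every entry on its own (0.0627), with library totals alone (0.573), without the filter (0.0632), and without normal replicate 2 (0.0664), normal replicate 3 (0.15) or stress replicate 2 (0.0528). Without stress replicate 1 it no longer passed the filter.

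Pattern C was present in both cultures of C. zofingiensis. It had 16, 8 and 12 reads under stress and 9, 9 and 3 reads in normal culture. Its levels overlapped, at 0.0674 ± 0.061% under stress and 0.0603 ± 0.071% in normal culture (SD, n = 3 each), and its log2 change was 0.74 ± 0.68 (SE; edgeR adjusted p = 0.374). The authors' deposited table gave it 0.875 under stress and 0 in normal culture, with p = 0.591 and an FDR of 0.892. It also listed pattern J at 0.23 under stress and 0 in normal culture (FDR of 1).

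Several patterns of C. zofingiensis lay under the filter, and some of them were listed in 1 kind of culture. Pattern G, at chr5:11975553-11975670, had 4, 5 and 0 reads under stress and 17, 10 and 16 reads in normal culture. Every normal library had more reads than every stress library. In the fit without a filter its log2 change was -2.38 ± 0.83 (SE; edgeR adjusted p = 0.0249). That fit called 75 of 326 patterns of all types, and 3 of 15 rRNA patterns. Pattern J, at chr1:16433916-16434034, had 23, 5 and 3 reads under stress and none in normal culture (edgeR adjusted p = 0.00246 without a filter). Pattern E, at chr3:13682872-13682990, had no reads under stress and 4, 3 and 6 in normal culture (0.0416 likewise). Pattern D had 5, 5 and 3 reads under stress and 4, 3 and 6 in normal culture: its normal reads are those of pattern E, and its commonest tags under stress were of 13 and 14 bases, against 11 bases in normal culture. Pattern L had 0, 0 and 2 reads under stress and 5, 4 and 5 in normal culture. Pattern O had 8, 0 and 4 reads under stress, pattern P had 7, 0 and 3, and neither was listed in normal culture. Pattern K had 6, 2 and 2 reads under stress and 2, 2 and 3 in normal culture, and pattern N had 6, 0 and 0 reads against 2, 6 and 0.

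**Figure D3:**
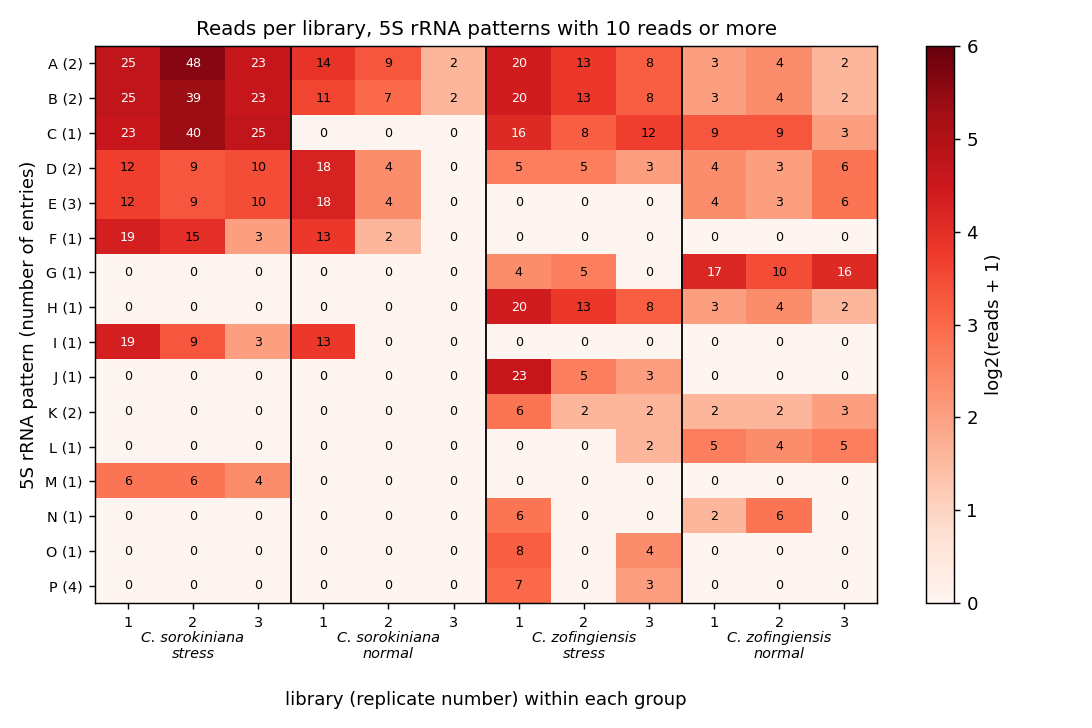
Reads of the 16 5S rRNA patterns with at least 10 reads (rows, with the number of entries in brackets) in the 12 libraries (columns), coloured by log2(reads + 1). Patterns A and B are the only rows with reads in every library, pattern C is at 0 in the normal libraries of C. sorokiniana, and patterns G, H, J, K, L, N, O and P have reads in C. zofingiensis alone.

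The species were compared with all 12 libraries in 1 fit of 135 patterns. Of the 25 rRNA patterns, 6 were shared by the species, 7 were listed for C. sorokiniana alone and 12 for C. zofingiensis alone. The stress response differed between the species for 9.63% of the tested patterns, and for 1 of the 6 rRNA patterns tested, pattern C (edgeR adjusted p = 0.0165, and 0.00287 with the block). Its fitted difference also rests on the normal libraries of C. sorokiniana at 0. For pattern A the difference of the responses, C. sorokiniana minus C. zofingiensis, was -1.33 ± 0.78 on the log2 scale (SE; edgeR adjusted p = 0.291), so a difference was not shown. By scaling, 5 of 13 calls of all types were positive with TMM and 9 of 10 with library totals alone.

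Between the species, the levels of the patterns differed in both directions, with some patterns in each alga alone. The filter let through none of the 12 patterns of C. zofingiensis alone, and it let through pattern F by its reads in C. sorokiniana alone, so a tally over the 6 tested patterns does not describe the 25. Those 6 were all called, 6 higher in C. sorokiniana in stress culture, and 5 higher with pattern C lower in normal culture. Over all tested patterns 75.6% were called in stress culture, 37.8% in each direction, and 56.3% in normal culture, 28.9% higher and 27.4% lower. In the fit without a filter, 9 of the 25 rRNA patterns were called higher and 2 lower in C. sorokiniana in stress culture, where 21.8% of 422 patterns were called higher and 22.7% lower. In normal culture 6 were called higher and 2 lower, where 12.1% of all patterns were called higher and 11.4% lower. Of the 25 log2 differences, 12 were positive in stress culture and 8 in normal culture, with a median of 0 in both. Pattern A, with reads in every library, differed by 2.06 ± 0.50 in stress culture (SE, log2; edgeR adjusted p = 0.00102) and by 3.39 ± 0.63 in normal culture (0.000181). Pattern C differed by 2.06 ± 0.58 in stress culture (0.0037). With DESeq2's size factors 2 of the 6 were called in stress culture and 4 in normal culture, and the median over all tested patterns in normal culture moved to -1.29, against -0.26 with TMM. The entries are Arabidopsis loci, and the tags of the 2 algae differ in sequence beside the shared run, so unequal matching and unequal levels cannot be told apart.

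Longer tags that hold or resemble a commonest tag of an rRNA entry were present in the deposited tag table, which lists the 100 commonest tags of each library. None of its C. sorokiniana tags holds, or is held in, a commonest tag of an rRNA entry, and 2 of its C. zofingiensis tags do. The 22-base C. zofingiensis tag that holds the 14-base tag of pattern G is shown, with those 14 bases in capitals. Its reads far exceeded those of pattern G, which had at most 17 in a library, so they were not counted there. Beside it is the C. sorokiniana tag that has the same first 4 bases and the same 9 bases gtcatacca at the same position. The C. sorokiniana tag was chosen after its values were seen.
C. zofingiensis, 22 bases: tgctgcagTCATACCACCACGA
C. sorokiniana, 25 bases: tgctacggtcataccatccagaaca

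The 22-base tag of C. zofingiensis had 1267, 312 and 243 reads under stress and 1565, 1282 and 896 reads in normal culture. It took 0.253%, 0.382% and 0.294% of the listed reads under stress and 0.603%, 0.332% and 0.207% in normal culture, so the shares overlapped. Its log2 change was -0.67 ± 0.41 (SE; edgeR adjusted p = 0.222), in a table where 56.5% of 115 tested tags were called. It passed without normal replicate 3 (-0.98, adjusted p = 0.0445). A 19-base form that ends 3 bases earlier had 1871, 1297 and 745 reads in normal culture and was outside the 100 commonest tags of each stress library. In the fits of either species an unlisted tag entered as 0, also in the shares of tags called. The adjusted p of this form was 0.00151 by edgeR and 0.099 with the block. Both values rest on the listing cut-off, under which reads may have stayed unlisted, so they do not show a fall in level. The other C. zofingiensis tag, of 23 bases, was unlisted under stress and in normal replicate 1. It had 566 and 1320 reads in normal replicates 2 and 3, and did not pass the filter.

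The 25-base tag of C. sorokiniana had 1084, 1126 and 511 reads under stress and 2096, 476 and 157 reads in normal culture. It took 0.567%, 0.707% and 0.391% of the listed reads under stress and 0.516%, 0.292% and 0.338% in normal culture. The shares overlapped, and the log2 change was 0.29 ± 0.33 (SE; edgeR adjusted p = 0.635), where 39.6% of 106 tags were called. A 23-base form, shorter by 2 bases, changed by -0.08 ± 0.40 (SE; edgeR adjusted p = 0.883). No rRNA entry of the C. sorokiniana sheets matched these tags, and their RNA of origin was not identified.

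**Figure D4:**
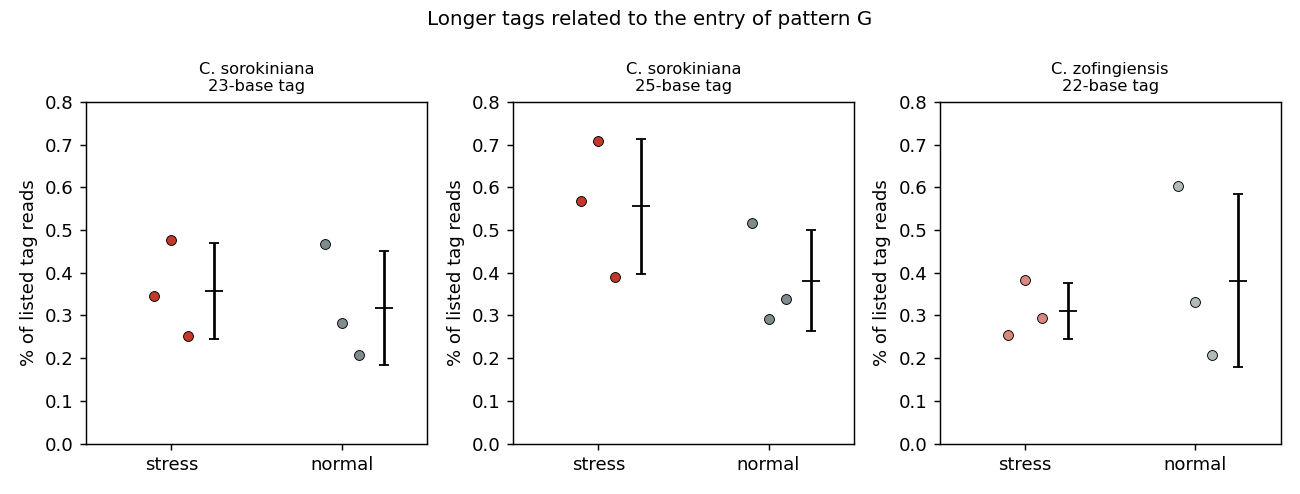
Percent of listed tag reads taken by the 23-base and 25-base tags of C. sorokiniana and the 22-base tag of C. zofingiensis, in stress and normal libraries; points are libraries and bars are the mean ± SD of 3. All 3 pairs of groups overlap.

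Small nucleolar RNAs that act in the early cleavage of pre-rRNA in yeast and animals, U3 and U14, gave a count for reference, although 5S rRNA itself is not cut from that precursor. Of 13 such entries, 9 of plant U3 and 4 of SNORD14, 7 were listed for C. sorokiniana and 12 for C. zofingiensis, and 1 passed the filter in each. In C. sorokiniana the SNORD14 entry at chr4:18305255-18305377 had 23, 27 and 10 reads under stress and 84, 54 and 4 reads in normal culture. It fell by 2.04 ± 0.60 on the log2 scale (SE; edgeR adjusted p = 0.00368). That call was lost without normal replicate 1 (-0.90, adjusted p = 0.223), without stress replicate 2 (-1.94, 0.226), without stress replicate 3 (-1.73, 0.182) and with every entry on its own (0.0579). In C. zofingiensis the U3 entry at chr4:421983-422194 had 607, 361 and 294 reads under stress and 0, 4 and 2 reads in normal culture, and rose (edgeR adjusted p = 0.00031). The SNORD14 entry at chr4:18305255-18305377 went the other way there in the fit without a filter (-2.78, edgeR adjusted p = 0.0414). That fit called 75 of 326 patterns of all types. With 1 library left out this SNORD14 entry was not called in any fit that tested it. Among all snoRNA entries, 3 of 18 tested patterns rose and 7 fell in C. sorokiniana, where 18.2% of all 66 rose and 24.2% fell. Their median log2 change was -0.18, against 0.33 over all 66. With DESeq2's size factors 4 of the 18 rose and 3 fell, and the medians were 0.19 and 0.78, so the sign of the snoRNA median depends on the scaling. In C. zofingiensis 4 of 33 rose and 9 fell, where 21.6% of all 116 rose and 12.1% fell, and the medians were -0.59 and -0.36. With library totals alone 2 of the 33 rose and 0 fell.

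Patterns of other RNA types with the most similar profile over the 12 libraries were found by Pearson's r of log2 levels among 322 candidates. The libraries share 2 species and 4 groups, so r mostly describes group means. For pattern C the closest was snoR24, a small nucleolar RNA at chr4:14468962-14469058 (r = 0.98), with 15, 16 and 12 reads in stress and 0 in normal libraries of C. sorokiniana. It had 27, 6 and 11 reads in stress and 10, 17 and 10 reads in normal libraries of C. zofingiensis. The next were tRNA entries at chr1:22887090-22887169 and chr4:10093067-10093146 (r = 0.97 each). For pattern A they were snoR114 (r = 0.89), the precursor of miR396b (r = 0.85) and snoR71 (r = 0.83), with reads mainly or wholly in C. sorokiniana. Within that species they did not follow pattern A: snoR114 had 13, 12 and 6 reads in stress and 38, 20 and 13 reads in normal libraries. The miR396b precursor had 21, 18 and 15 reads in stress and 76, 29 and 9 reads in normal libraries. The reads of snoR71 were 9, 12 and 5 in stress and 10, 2 and 2 in normal libraries.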

How the data were processed

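Small RNA was sequenced in 12 libraries. RNA was extracted with TRIzol and prepared with the NEBNext Multiplex Small RNA kit, per the labels' protocols. Neither the aligner nor the trimming is given in the sources used here; TAIR9 and DESeq are named in the submitters' processing notes. The authors deposited counts of reads per Arabidopsis entry and counts per tag, per the file headers. They also deposited a signal, the counts divided by mapping loci, and the mapping loci and commonest tag of each entry, per the file headers. Normalized group means, p-values and FDR values come from the authors' deposited tables.

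An entry absent from a sheet was taken as 0. Entries of 1 type with identical counts entered once. Counts were tested with edgeR 4.0.16 (glmQLFit, robust; TMM; filterByExpr; two-sided) in R 4.3.3, 6 libraries per species, or 12 for contrasts between species. Calls have a Benjamini-Hochberg adjusted p below 0.05. Alternatives were DESeq2 1.42.0 size factors and Wald test, library totals alone, no filter, every entry on its own, each library left out, and a replicate block. Same-numbered libraries deviated together (r = 0.144, 0.113 and 0.155 in C. sorokiniana, 0.296, 0.16 and 0.11 in C. zofingiensis; patterns with at least 30 reads), so the replicate block pairs the samples by number. Other-numbered libraries gave r from -0.2765 to 0.0823, so the evidence for pairing is weak. The main tests do not use this pairing. Shares were compared by exact permutation tests (scipy 1.17.1). Likeness used log2 of (CPM of annotated counts + 1), for the chromosome 5, 12024975 locus and the pattern with most reads, among patterns with reads in at least 3 libraries. Every rRNA pattern is accounted for, those with at least 10 reads by their values. Members, lists and rules were chosen with earlier results of these data known. Tags of uncertain origin are not printed.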

Additional observations from a re-analysis of the deposited data

Results flagged for a closer look

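The stress response of the reads counted for pattern C, the 5S rRNA locus at chromosome 5, 12024975, differed between the species by a test of the difference itself. The fitted difference, C. sorokiniana minus C. zofingiensis, was 7.51 on the log2 scale (edgeR's quasi-likelihood test, adjusted p = 0.0165). It is no bound, because the locus was at 0 in all 3 normal libraries of C. sorokiniana. The difference was positive and passed under each alternative that was run.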

How the results depend on the processing

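The counts of called rRNA patterns rest on few reads and moved with the processing, while the call of pattern C in C. sorokiniana was kept under each alternative. In C. sorokiniana, 1 of 5 rRNA patterns was called in stress against normal, where 28 of 66 patterns of all types were. It was 3 of 5 with DESeq2's size factors (24 of 66 over all types), with library totals alone (27 of 66) and with DESeq2's Wald test (26 of 66). Without a filter it was 2 of 11 (44 of 218), and with 1 library left out 1 to 4. The 4 came without normal replicate 1, where 29 of 30 calls of all types were higher. In C. zofingiensis it was 1 of 2 (39 of 116 over all types). It was 0 with every entry on its own (87 of 248), library totals alone (5 of 116) and the replicate block (52 of 116). Without a filter it was 3 of 15 (75 of 326), and with 1 library left out 0 to 1. Without stress replicate 2 the 1 call was pattern G, lower at -3.10 (edgeR adjusted p = 0.0498). For the difference of the responses it was 1 of 6 (13 of 135 over all types). It was 2 of 6 with every entry on its own (66 of 286) and with library totals alone (10 of 135), and 1 to 2 with 1 library left out. For C. sorokiniana against C. zofingiensis in normal culture it was 6 of 6 (76 of 135 over all types). It was 3 with library totals alone (63 of 135) and 4 with DESeq2's size factors (86 of 135). With 1 library left out it was 2 to 7, with 2 without C. sorokiniana normal replicate 1 (83 of 175). In stress culture it was 6 of 6 (102 of 135 over all types). It was 2 with DESeq2's size factors (101 of 135) and 2 with DESeq2's Wald test (96 of 135). Without a filter it was 11 of 25, 9 higher and 2 lower (188 of 422), and with 1 library left out 5 to 7. Over all types, 39 patterns were called in C. zofingiensis with TMM and 5 with library totals alone, and 28 and 27 in C. sorokiniana. The replicate block ended the call of pattern A in C. zofingiensis (adjusted p = 0.0575) and no other rRNA call in stress against normal or between the responses. Between species within a culture it was not run, since numbers do not pair libraries of different species. For the share of annotated counts the paired test gave p = 0.25 in C. sorokiniana and 0.75 in C. zofingiensis (exact sign flips), and the 22-base tag changed by -0.54 with the block (adjusted p = 0.377). The difference in share kept its direction in C. sorokiniana except for the share of annotated entries detected (-0.443 percentage points), and was 1.42 to 1.92 when 1 library was left out, 0.522 with every entry on its own, 0.551 with counts divided by mapping loci, and 1.03 over the patterns whose commonest tag holds the shared run. In C. zofingiensis it turned with counts divided by mapping loci (0.00353) and over the patterns whose commonest tag holds the shared run (0.0444, chosen after seeing the data) and ranged from -0.233 to 0.106 with 1 library left out. The 22-base tag ranged from -0.98 to -0.16. The cause of these changes was not tested. Loci with 2 to 9 reads could not be compared at this depth.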
